A study of Mus musculus with 2 samples.

Results

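Among the sorted femoral cells of 2 young mice, 51 of 653 kept wells carried much Prg4 or Cytl1 RNA without the marker genes of tendon, fibroblasts or cartilage above set limits. These wells, called Prg4/Cytl1 wells here, were chosen by measured values: a summed Prg4 and Cytl1 level of at least 500 CPM (counts scaled to a common well total), Tnmd below 2000 CPM, Mfap5 and Cd34 together below 300 CPM, and Ucma, Matn3, Col9a1 and Lect1 together below 4000 CPM. A well was kept with at least 500 genes detected and at most 20% of its counts from mitochondrial genes. Those 9 genes selected the wells, so their levels are description, and every test below concerns other genes.

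Prg4 encodes lubricin, a mucin-like glycoprotein that coats joint surfaces and is made by cells of the superficial zone of articular cartilage and by the lining of the synovium. Cytl1 encodes a small secreted protein known from cartilage. Chondrocytes build a matrix of type II, IX and XI collagen fibrils and aggrecan under the control of the transcription factor Sox9, whereas fibroblasts of the joint and periosteum make a looser matrix of type I and III collagen, decorin and periostin.

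All cells came from femurs of C57/B6 mice of the genotype CTSK-cre+ mTMG on postnatal day 6, and 2 littermates were used. Cre is made under the promoter of cathepsin K, and a cell keeps membrane GFP once Cre has acted, so a sorted cell had present or past promoter activity or descended from such a cell. No group differed in treatment, strain or age, and the comparisons are between kinds of wells within these animals. Animal 1 filled plate 47 and animal 2 filled plate 48, so animal and plate cannot be told apart.

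Each of the 653 wells fell into 1 of 5 groups. The Prg4/Cytl1 wells numbered 18 in animal 1 and 33 in animal 2. Cartilage wells, with a summed Ucma, Matn3, Col9a1 and Lect1 level of at least 4000 CPM, numbered 79 and 101. Below that level, tendon wells (Tnmd at least 2000 CPM) numbered 63 and 39, fibroblast wells (Mfap5 and Cd34 together at least 300 CPM) 68 and 83, and remaining wells 90 and 79. Well totals ran between 43318 and 237077 counts in Prg4/Cytl1 wells, against 9767 and 675621 over all kept wells, and median totals were 101984 and 98211 counts in Prg4/Cytl1 wells of the 2 animals against 101207 and 119126 in all kept wells. All 95 well barcodes occurred in both animals, because each plate used the same barcodes in its quadrants. No doublet caller was run, and none of the 31 wells with over 2 times the median total of their animal was a Prg4/Cytl1 well.

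Prg4/Cytl1 wells made up 5.66% of the kept wells of animal 1 (exact binomial 95% interval 3.39 to 8.80) and 9.85% of those of animal 2 (6.88 to 13.6), a mean of 7.76% ± 2.96 (SD, n = 2 animals). The 2 intervals overlapped. Within plate 47 the 4 quadrants gave 3 to 6 such wells each. Within plate 48 they gave 5, 14, 8 and 6, and the quadrant with 14 had them in 17.1% of its kept wells. These intervals cover the sampling of wells within an animal only.

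Lubricin RNA accounted for most of the selection. Prg4 alone reached 500 CPM in 34 wells (10 in animal 1 and 24 in animal 2), both genes did in 11 (5 and 6), and Cytl1 alone did in 6 (3 and 3). Prg4 lies on chromosome 1 (150449412 to 150466165, minus strand, build mm10) and its level per well had a median of 1753 CPM in animal 1 (0 to 21863) and 3485 CPM in animal 2 (0 to 16778). Cytl1 lies on chromosome 5 (37735519 to 37739820, plus strand) and was counted in 9 of 18 wells of animal 1 and 12 of 33 wells of animal 2, with highest values of 9923 and 9258 CPM. Prg4 was counted in 48 of the 51 wells and Cytl1 in 21.

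**Figure D1:**
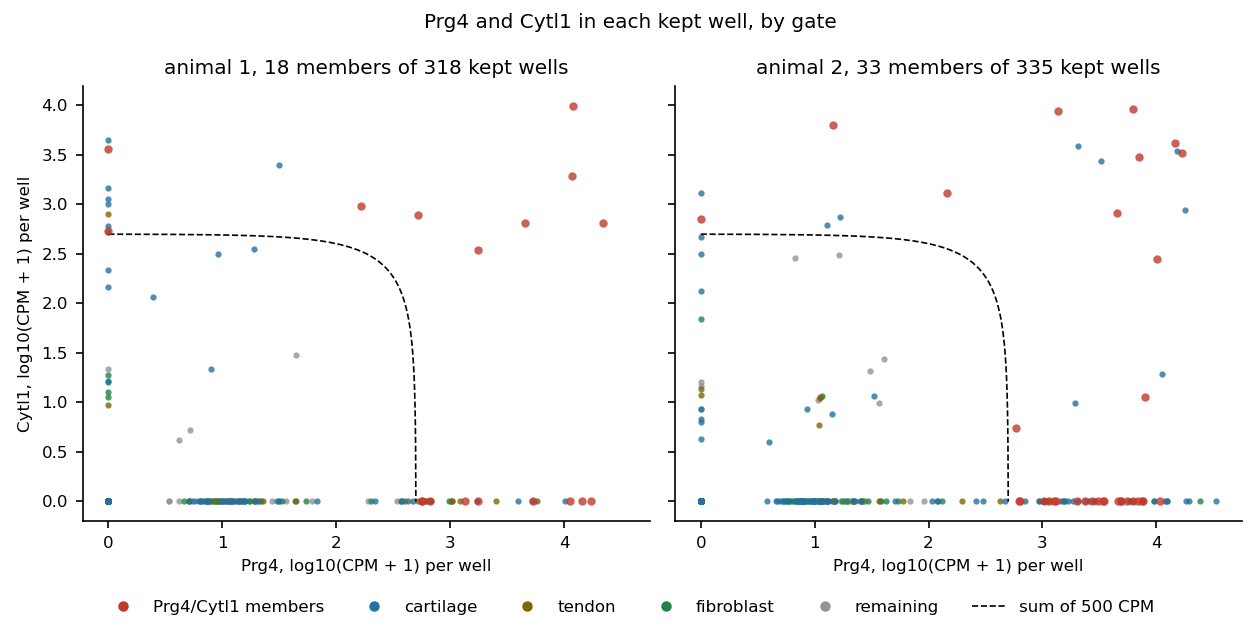
Prg4 (x axis) against Cytl1 (y axis) in every kept well, as log10(CPM + 1), with animal 1 on the left and animal 2 on the right, coloured by group; the dashed curve is a sum of 500 CPM. The 51 Prg4/Cytl1 wells lie outside the curve, most of them along the Prg4 axis, and no remaining well does, since the rule puts the limit there.

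Wells near the limits were few. The lowest summed Prg4 and Cytl1 levels inside were 539, 565 and 566 CPM, and the highest below the limit were 372, 342 and 326 CPM. The highest Tnmd inside was 519 CPM and the lowest outside 2395 CPM, and for Mfap5 and Cd34 these values were 214 and 341 CPM. The cartilage sum was the limit that cut closest, with 3983 CPM for the highest well inside and 4102 CPM for the lowest well outside. That sum had a median of 1111 CPM in Prg4/Cytl1 wells, against 9912 CPM in cartilage wells and 22.4 CPM in all other wells below the cartilage limit. Prg4 and Cytl1 also summed to at least 500 CPM in 38 cartilage, 19 tendon and 7 fibroblast wells, which the other limits kept out.

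A count of Prg4 was common at low level everywhere. It was present in 94.1% of Prg4/Cytl1 wells, and also in 39.7% (fibroblast) to 58.3% (cartilage) of the wells of each other group, with a mean of 12.8 CPM in remaining wells. With every well thinned to 5000 counts these shares became 92.2% in Prg4/Cytl1 wells and 22.8%, 23.5%, 7.28% and 3.55% in cartilage, tendon, fibroblast and remaining wells. Applying the rule to thinned wells gave 49 wells, of which 45 were the same.

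For tests, counts were summed per group and animal, which gave 10 sums, and edgeR's quasi-likelihood test was fitted across 14369 genes with the animal as a block and Benjamini-Hochberg adjustment. Levels of these sums are in CPM of the library total scaled by TMM, as mean ± SD over the 2 animals. Where several groups form the comparison, the level given is their plain mean and the fold change is against their geometric mean, so a group with a very low level weighs more in the fold. The block takes out the difference between the 2 littermates that all groups share. The p-values therefore rest on how far the group differences disagreed between these littermates, over all 5 groups. All folds are log2 of Prg4/Cytl1 wells over the comparison, and the median fold over all genes was -0.28 against the 3 groups below the cartilage limit, -0.34 against cartilage wells and -0.28 against all 4 groups.

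Set against the tendon, fibroblast and remaining wells, the Prg4/Cytl1 wells were higher in cartilage matrix genes and lower in several genes of fibrous matrix. The edgeR test called 40 of 14369 genes (0.278%), 21 higher (0.146%) and 19 lower (0.132%), and each moved the same way in both animals. At unadjusted p under 0.05 there were 1759 genes (621 of them higher), DESeq2 called 1106 and limma 112. Of the 21 higher genes, 16 had both Prg4/Cytl1 sums above all 6 sums of the comparison, and of the 19 lower genes, 18 had both below. These counts describe genes already called on the same sums and add no support to the calls. The share over all genes was not counted.

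Chondrocyte matrix and regulator genes gave the clearest group: 9 of 25 tested were called higher and none lower, with a median log2 fold of 1.83, beside -0.28 over all genes. At unadjusted p under 0.05, 17 were higher and 0 lower, and DESeq2 called 17 higher and 0 lower. The 25 genes together summed to 10780 and 11228 CPM in Prg4/Cytl1 wells. The sums were 5924 and 7992 CPM in tendon, 570 and 754 CPM in fibroblast and 6743 and 10084 CPM in remaining wells. Folds are against a geometric mean, so they lean on the fibroblast wells. The margin over remaining wells was smaller, above all in animal 2. Col2a1, the main fibrillar collagen of cartilage (chromosome 15, 97975602 to 98004695, minus strand), stood at 3169 and 4183 CPM in Prg4/Cytl1 wells of animals 1 and 2, against 1146 and 2008 CPM in tendon, 82.8 and 62.2 CPM in fibroblast and 1724 and 2601 CPM in remaining wells. Both Prg4/Cytl1 sums exceeded all of these, and the log2 fold was 2.55 ± 0.21 (SE, edgeR adjusted p = 0.0203). Hapln1, the link protein that ties aggrecan to hyaluronan, was 508 and 650 CPM in Prg4/Cytl1 wells, against 142 and 294 CPM in tendon, 11.2 and 12.2 CPM in fibroblast and 194 and 415 CPM in remaining wells, a log2 fold of 2.69 ± 0.25 (edgeR adjusted p = 0.0203). Its Prg4/Cytl1 sums also lay above the comparison, by a smaller margin over the remaining wells of animal 2.

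Sox9, the master regulator of the chondrocyte programme, had 249 and 215 CPM in Prg4/Cytl1 wells, against 74.0 and 119 CPM in tendon, 30.9 and 33.3 CPM in fibroblast and 93.9 and 132 CPM in remaining wells (log2 fold 1.74 ± 0.21, edgeR adjusted p = 0.0407). No comparison sum reached the lower Prg4/Cytl1 value; the edgeR adjusted p was 0.0516 without the filter on low counts, 0.0641 with a membership limit of 1000 CPM and 0.0647 without wells over 2 times the median total. Comp, a pentameric protein that binds collagen fibrils of cartilage and tendon, had 360 and 357 CPM in Prg4/Cytl1 wells, against 250 and 234 CPM in tendon, 20.8 and 25.2 CPM in fibroblast and 151 and 222 CPM in remaining wells (log2 fold 1.83 ± 0.17, edgeR adjusted p = 0.0203). The type IX and XI collagen chains Col9a3 (log2 fold 3.32) and Col11a2 (2.57) and the secreted chondrocyte protein Mia (2.65) were called too, and so was 3110079O15Rik (2.32). For 3 of the 9 the groups were not apart everywhere. Mia and 3110079O15Rik overlapped the remaining wells. Col11a1 was 1102 and 1323 CPM in Prg4/Cytl1 wells, which is below the 1657 and 1578 CPM of tendon wells and overlaps the 1334 and 1298 CPM of remaining wells, so its log2 fold of 1.17 rests on the fibroblast wells at 71.8 and 75.7 CPM.

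**Figure D2:**
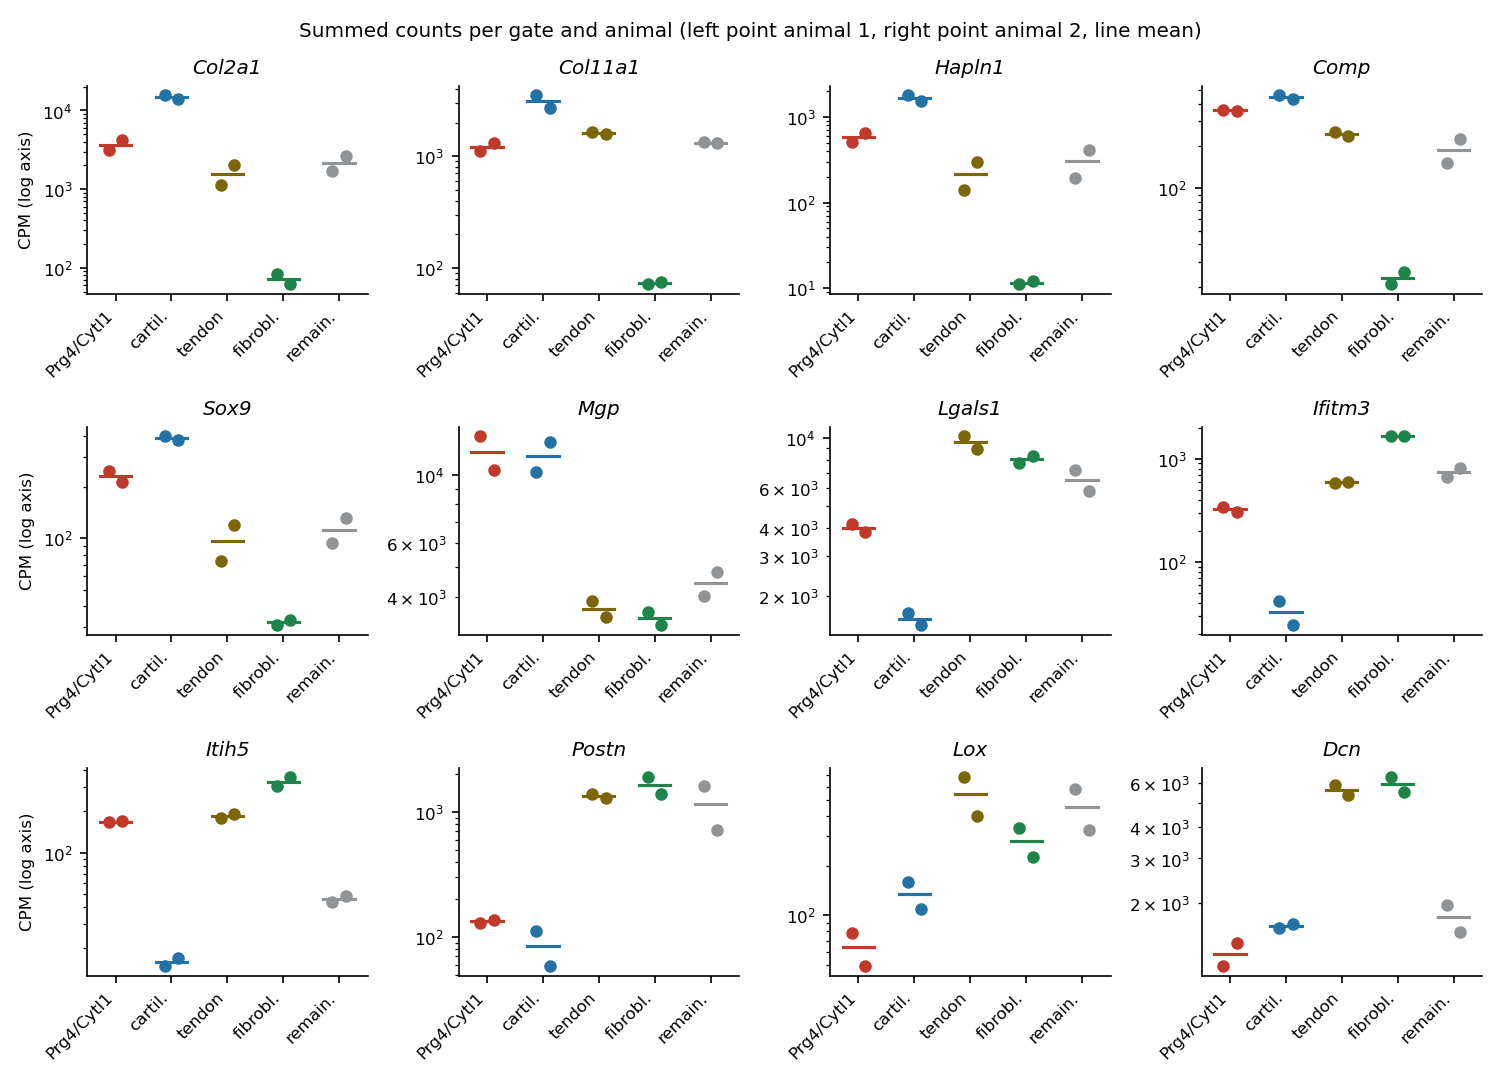
Summed level of 12 genes in the 5 groups of wells, in CPM on log axes; the left point of each pair is animal 1, the right point animal 2 and the line their mean. Cartilage genes such as Col2a1 and Hapln1 lie between cartilage wells and the groups below the cartilage limit, Mgp is level with cartilage wells, and Lgals1 lies between cartilage wells and the rest.

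Beside the cartilage genes, the other higher genes included secreted, membrane and stress-response genes. None of these was called higher against cartilage wells or against all 4 other groups. They were thus not shown to be particular to the Prg4/Cytl1 wells. Mgp, which encodes matrix Gla protein, an inhibitor of calcification, was 13294 and 10350 CPM in Prg4/Cytl1 wells, against 3889 and 3462 CPM in tendon, 3580 and 3248 CPM in fibroblast and 4041 and 4844 CPM in remaining wells (log2 fold 1.63 ± 0.13, edgeR adjusted p = 0.0203). It was 10221 and 12762 CPM in cartilage wells, which the Prg4/Cytl1 sums overlapped. Sdc4, a cell-surface heparan sulphate proteoglycan, averaged 333 ± 59.7 CPM in Prg4/Cytl1 wells and 87.1 ± 17.3 CPM in the comparison (log2 fold 1.97). Cox4i2, an isoform of a cytochrome c oxidase subunit, averaged 165 ± 14.2 CPM in Prg4/Cytl1 wells and 60.7 ± 1.98 CPM in the comparison (log2 fold 2.07). Fam180a (2.31), Fibin (1.88), the heat shock gene Hspa1a (1.84), Ninj1 (1.82) and Crispld1 (1.68) were also called, and the Ninj1 sums overlapped those of tendon wells.

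Genes of fibrous connective tissue were among the lower ones. Of 18 fibroblast genes tested, 3 were called lower and 0 higher (Postn, Fbn1 and Col3a1), beside 0.132% of all genes called lower, and the median log2 fold was -1.69. Fibroblast wells were selected on Mfap5 and Cd34, so a lower level against that group is partly set by the choice of wells, and the remaining wells share the same limits on those genes. Postn, the matricellular protein periostin, was 131 and 136 CPM in Prg4/Cytl1 wells, against 1404 and 1290 CPM in tendon, 1890 and 1397 CPM in fibroblast and 1610 and 721 CPM in remaining wells (log2 fold -3.31 ± 0.31, edgeR adjusted p = 0.0203). Every comparison sum was above the Prg4/Cytl1 sums, and 44.2% of the Prg4/Cytl1 counts of this gene came from 1 well. Dcn, the small proteoglycan decorin, was 1113 and 1375 CPM in Prg4/Cytl1 wells, against 5892 and 5366 CPM in tendon, 6326 and 5546 CPM in fibroblast and 1963 and 1526 CPM in remaining wells (log2 fold -1.63 ± 0.14, edgeR adjusted p = 0.0203). Fbn1, the fibrillin of elastic microfibrils, overlapped the remaining wells, with 78.1 and 57.3 CPM in Prg4/Cytl1 wells against 91.5 and 49.1 CPM there. Not all genes of fibrous tissue were lower. Fmod, another small proteoglycan, was called higher (log2 fold 1.25, edgeR adjusted p = 0.0209), although both its sums lay below those of tendon wells. It was the 1 gene called of 12 tendon and ligament genes, where 5 were higher and 4 lower at unadjusted p under 0.05. DESeq2 called 3 of these higher and 4 lower, and limma 2 and 2.

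Lox, lysyl oxidase, which cross-links collagen and elastin, was the sole gene called against the mean of all 4 other groups, 1 of 14369 genes (0.00696%) with edgeR, where 1669 genes had an unadjusted p under 0.05 (572 of them higher), DESeq2 called 927 and limma 22. It was 78.6 and 49.4 CPM in Prg4/Cytl1 wells, against 160 and 109 CPM in cartilage, 681 and 398 CPM in tendon, 339 and 226 CPM in fibroblast and 577 and 327 CPM in remaining wells. All 8 comparison sums lay above both Prg4/Cytl1 sums, and the log2 fold was -2.27 ± 0.16 (edgeR adjusted p = 0.0354). A count of Lox was found in 15 of the 51 Prg4/Cytl1 wells. The call was lost with a membership limit of 1000 CPM (adjusted p = 0.118) or 250 CPM (adjusted p = 0.158, log2 fold -1.03), and without the block (adjusted p = 0.117). It was also lost with the tendon, fibroblast and remaining wells summed into 1 group before fitting (edgeR adjusted p = 0.450, log2 fold -1.86).

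The remaining lower genes had mixed roles. Those named next were called against the tendon, fibroblast and remaining wells, and no gene was called lower against cartilage wells. Marcks, an actin-binding membrane protein, averaged 22.6 ± 4.35 CPM in Prg4/Cytl1 wells and 316 ± 62.0 CPM in the comparison (log2 fold -3.65). Sepp1, the selenium carrier selenoprotein P, was 31.9 and 16.3 CPM in Prg4/Cytl1 wells, against 266 ± 72.8 CPM in the comparison (log2 fold -3.22). Tmsb4x, thymosin beta 4, which binds actin monomers, averaged 1001 ± 211 CPM in Prg4/Cytl1 wells and 3444 ± 440 CPM in the comparison (log2 fold -1.68).

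A few genes were at or near 0 in all 51 wells. Apool, a protein of the inner mitochondrial membrane, had 0 counts in Prg4/Cytl1 wells of both animals, against 56.0 ± 13.0 CPM in the comparison. No bound on its fold is given, because a count was not read as a molecule. Apod, a lipid-carrying apolipoprotein, had 1.54 and 0.247 CPM in Prg4/Cytl1 wells, against 424 and 220 CPM in tendon, 582 and 473 CPM in fibroblast and 64.1 and 108 CPM in remaining wells. Rasl11a, a Ras-like gene, had 1 and 2 counts in Prg4/Cytl1 wells, against 106 ± 1.56 CPM in the comparison, and Zfhx4, a zinc finger homeobox gene, averaged 2.04 ± 1.48 CPM against 78.1 ± 7.69 CPM. All 4 passed the edgeR test in this comparison, with adjusted p between 0.0203 and 0.0359. None of them was called lower against cartilage wells or against all 4 other groups. Their low levels were thus not shown to be particular to the Prg4/Cytl1 wells.

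When all comparison wells below the cartilage limit were summed into 1 group before fitting, which leaves 6 sums, none of the genes named from this comparison stayed below an adjusted p of 0.05, and the log2 folds kept their signs. The cartilage genes had smaller folds in that fit: Mia had 1.07 against 2.65, Col11a2 1.09 against 2.57, 3110079O15Rik 0.92 against 2.32, Col2a1 1.58 against 2.55, Col9a3 2.25 against 3.32 and Hapln1 1.78 against 2.69 in the fit reported. Fam180a (1.67) and Cox4i2 (1.45) were smaller too, and Fbn1 (-2.63) was further below 0. Of the 25 genes named from this comparison by the rule on size, 18 kept their call under every other setting tried. The other 7 were Sox9, Ninj1, Hspa1a, Postn, Marcks, Lox and Fbn1. With a membership limit of 1000 CPM the edgeR adjusted p was 0.0571 for Postn, 0.0589 for Marcks, 0.0523 for Hspa1a and 0.0535 for Lox. Without the block it was 0.151 for Ninj1, 0.0743 for Fbn1 and 0.0576 for Lox. It was also 0.0845 for Ninj1 with a limit of 250 CPM, and 0.0879 for Fbn1 without wells over 2 times the median total.

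Against cartilage wells the difference ran the other way for cartilage genes, which is in part built into the selection, because the cartilage sum separates these groups. The edgeR test called 4 of 14369 genes (0.0278%), all higher in Prg4/Cytl1 wells. At unadjusted p under 0.05 there were 1531 genes (391 of them higher), DESeq2 called 645 and limma 30. Of the 25 chondrocyte genes none was called; 14 were lower and 0 higher at unadjusted p under 0.05, DESeq2 called 11 lower and limma 2, and the median log2 fold was -1.55. The Prg4/Cytl1 level was 59.8% of that of cartilage wells for Sox9 and 80.4% for Comp. It was 39.3% for Col11a1, 35.2% for Hapln1, 32.9% for Col11a2, 25.1% for Col2a1, 23.8% for Col9a3, 17.4% for Mia and 13.3% for 3110079O15Rik. Comp and Sox9 had the highest shares in each animal (78.8% and 62.5% in animal 1, 82.0% and 56.8% in animal 2). The order of the others differed between the animals, and Col9a3 stood at 33.5% in animal 1 and 11.5% in animal 2.

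Matn1 and Epyc were near 0. Matn1, a cartilage matrilin, had 0.514 and 0 CPM in Prg4/Cytl1 wells, against 160 and 79.8 CPM in cartilage wells, but 1 well held 46.9% of its counts over all kept wells. Epyc, a small proteoglycan of growth plate cartilage, had 1.03 and 0.247 CPM, against 268 and 221 CPM in cartilage wells. Neither passed the test (edgeR adjusted p = 0.284 and 0.291).

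The 4 genes higher than in cartilage wells were Egfl6, Itih5, Ifitm3 and Lgals1, each with edgeR adjusted p = 0.0271. Lgals1, the secreted lectin galectin-1, was 4179 and 3819 CPM in Prg4/Cytl1 wells, against 1679 and 1491 CPM in cartilage wells (log2 fold 1.34 ± 0.10). It stayed below the tendon, fibroblast and remaining wells, at 5792 CPM or more, and was called lower there (log2 fold -0.99, edgeR adjusted p = 0.0203). Ifitm3, an interferon-inducible membrane protein, was 344 and 303 CPM in Prg4/Cytl1 wells, against 41.4 and 24.4 CPM in cartilage wells (log2 fold 3.31 ± 0.27). Itih5, a secreted hyaluronan-binding protein of the inter-alpha-trypsin inhibitor family, was 168 and 169 CPM, against 14.9 and 17.1 CPM in cartilage wells (log2 fold 3.40 ± 0.23). The sums of both genes lay above both cartilage sums, which describes genes already called on these sums and adds no support to the calls. Egfl6, a secreted EGF-repeat protein, was 48.3 and 65.9 CPM, against 0.538 and 0.397 CPM (log2 fold 6.92 ± 0.55), but was counted in just 7 of the 51 wells and was not called with a membership limit of 1000 CPM (adjusted p = 0.361). Lgals1 was not called at that limit either (adjusted p = 0.0533). With the tendon, fibroblast and remaining wells summed into 1 group before fitting, none of the 4 genes was called (edgeR adjusted p = 0.148 to 0.324).

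**Figure D3:**
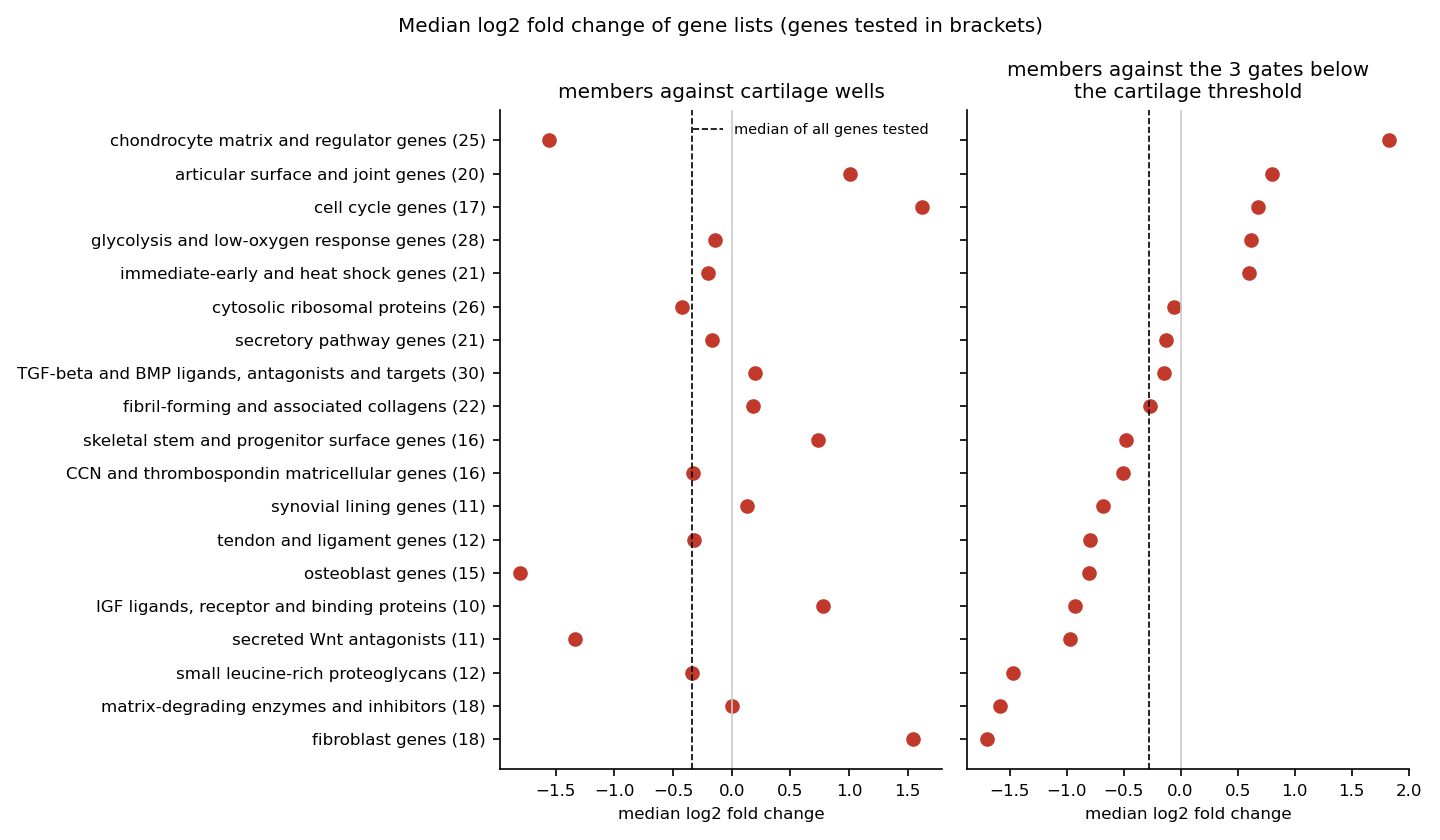
Median log2 fold of 19 gene lists for Prg4/Cytl1 wells against cartilage wells (left) and against the tendon, fibroblast and remaining wells (right), with the number of genes tested in brackets and the median of all genes as a dashed line. Chondrocyte genes have a median of -1.55 on the left and 1.83 on the right, and fibroblast genes 1.55 and -1.69.

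The name articular-like was checked against 20 other genes of the articular surface and joint, none of which the rule used. Against the groups below the cartilage limit 1 of the 20 was called higher (Crispld1) and none lower, with a median log2 fold of 0.80, and against cartilage wells none was called, with a median of 1.01. At unadjusted p under 0.05, 8 were higher and 1 lower in the first comparison and 6 higher and 2 lower in the second. DESeq2 called 8 higher and 2 lower in the first and 6 higher and 1 lower in the second, and limma called 1 and 1, and 1 and 0. Over all 14369 genes, 621 and 391 were higher at unadjusted p under 0.05 in the 2 comparisons. In the first, edgeR called 0.146% of all genes higher. The 20 genes together summed to 5811 and 7269 CPM in Prg4/Cytl1 wells. That was below the 7943 and 8120 CPM of cartilage and the 9878 and 10089 CPM of tendon wells. It was above the 1703 and 2011 CPM of fibroblast and the 3560 and 5227 CPM of remaining wells. Since 1 of these 20 genes passed the test, the wells are called by their rule and are given no cell type name.

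Creb5, a transcription factor known from bovine articular chondrocytes to act on Prg4, had 225 and 171 CPM in Prg4/Cytl1 wells, against 21.5 and 59.8 CPM in cartilage, 19.7 and 3.41 CPM in tendon, 43.9 and 64.7 CPM in fibroblast and 14.8 and 18.2 CPM in remaining wells. The Prg4/Cytl1 sums were above all 8 others, but the log2 fold of 3.18 ± 0.61 against the groups below the cartilage limit did not pass (edgeR adjusted p = 0.137). In thinned wells it was detected in 35.3% of Prg4/Cytl1 wells (22.4 to 49.9), against 6.67% of cartilage (3.49 to 11.4), 2.94% of tendon, 13.2% of fibroblast (8.28 to 19.7) and 2.96% of remaining wells. Clu, the extracellular chaperone clusterin, was likewise highest in Prg4/Cytl1 wells, with 846 and 366 CPM in Prg4/Cytl1 wells, against 178 and 292 CPM in cartilage wells and 195 CPM or less elsewhere, and also did not pass (log2 fold 2.68 ± 0.47, edgeR adjusted p = 0.113). It was found in 47.1% of thinned Prg4/Cytl1 wells (32.9 to 61.5), against 29.4% of cartilage (22.9 to 36.7), 21.6% of tendon, 6.62% of fibroblast and 20.7% of remaining wells.

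Other joint genes marked smaller subsets. Vit, which encodes the matrix protein vitrin, was seen in 19.6% of thinned Prg4/Cytl1 wells, against 10.6% of cartilage and 4.73% or fewer of the other wells. Col22a1, a collagen of tissue junctions, was seen in 11.8% of thinned Prg4/Cytl1 wells, against 0% of cartilage wells (0 of 180) and 5.33% or fewer of the others. Thbs4 did not have this order: it was seen in 21.6% of thinned Prg4/Cytl1 wells, against 58.8% of tendon and 27.8% of fibroblast wells. Of the joint regulators, Erg was counted in 6 and Gdf5 in 3 of the 51 wells, all 3 of animal 1, and Bmp3 had no count in any of them.

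Of the synovial lining genes, the other known setting of lubricin, 11 were tested. Of these, none was called by edgeR in either comparison; at unadjusted p under 0.05 there were 1 higher and 2 lower against the groups below the cartilage limit, where DESeq2 called 1 and 1, limma 0, and the median log2 fold was -0.68. Against cartilage wells 3 were higher and 0 lower at unadjusted p under 0.05, DESeq2 called 2 higher, limma 0, and the median was 0.13. Cd55, a complement regulator used to mark lining fibroblasts, was 41.1 and 47.7 CPM in Prg4/Cytl1 wells, against 141 and 299 CPM in fibroblast wells, and was seen in 3.92% of thinned Prg4/Cytl1 wells against 32.5% of fibroblast wells. Tspan15 was 27.2 and 46.9 CPM in Prg4/Cytl1 wells, against 1.30 and 43.1 CPM in fibroblast wells and 6.11 CPM or less elsewhere, and was seen in 7.84% of thinned Prg4/Cytl1 wells.

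**Figure D4:**
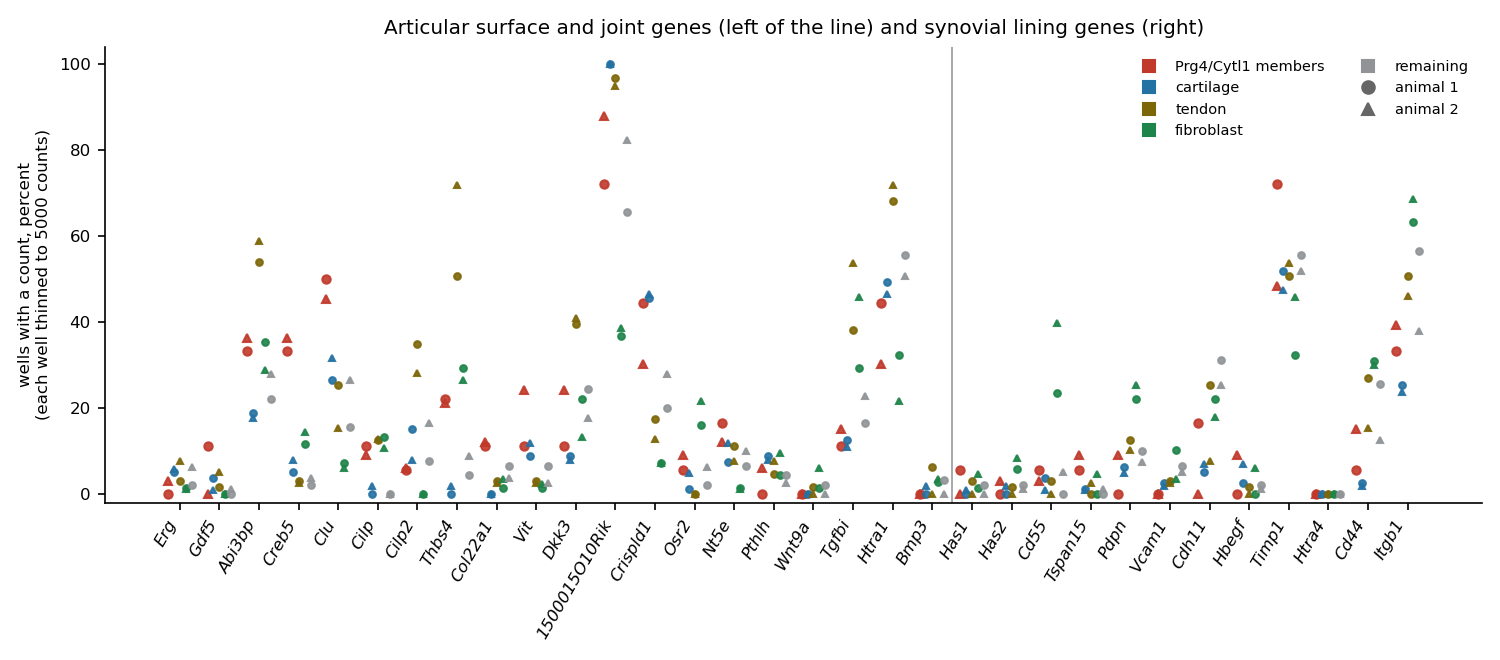
Share of wells with a count of each articular or joint gene (left of the line) and each synovial lining gene (right), in percent of wells thinned to 5000 counts, by group (colour) and animal (shape). Creb5 and Clu are highest in Prg4/Cytl1 wells of both animals, whereas Thbs4 is highest in tendon wells and Cd55 in fibroblast wells.

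Marker lists of other cell types that a sort could carry over differed in level. All 8 endothelial genes had 0 counts in Prg4/Cytl1 wells, and white blood cell genes summed to 21 and 10 CPM, with Ptprc, Cd74 and Cd79a at 0. Skeletal muscle genes summed to 0 and 35 CPM and erythroid genes to 8 and 22 CPM. These lists were low in the other groups too. Endothelial genes ranged there from 0.244 to 73.5 CPM, white blood cell genes from 3.90 to 17.9, muscle genes from 12.2 to 46.9 and erythroid genes from 0.974 to 11.6 CPM. The osteoblast markers Dmp1 and Mepe had no count, and Bglap, osteocalcin, had 0 and 0.247 CPM in Prg4/Cytl1 wells against 393 and 345 CPM in remaining wells. The osteoblast list of 16 genes summed to 6572 and 5199 CPM in Prg4/Cytl1 wells, of which Col1a1, a type I collagen chain, gave 5213 and 4255 CPM. The same sum was 8872 and 6374 CPM in cartilage, 17413 and 14080 CPM in tendon, 5550 and 3146 CPM in fibroblast and 16067 and 13104 CPM in remaining wells. Against the groups below the cartilage limit edgeR called none of the 15 tested, with 2 higher (Spp1 and Omd) and 4 lower at unadjusted p under 0.05; DESeq2 called 2 higher and 3 lower, and limma 0 higher and 1 lower.

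The sum of the 9 mural genes was 360 and 315 CPM in Prg4/Cytl1 wells, above the 147 and 110 CPM of cartilage and the 145 and 223 CPM of tendon wells, overlapping the 270 and 424 CPM of fibroblast wells and below the 1851 and 928 CPM of remaining wells. Rgs5, a pericyte gene, and Cspg4, the NG2 proteoglycan, made up most of it, while Notch3, Kcnj8 and Abcc9 were at 0. Of the 9, edgeR called none against the groups below the cartilage limit, with 2 higher (Rgs5 and Cspg4) and 3 lower at unadjusted p under 0.05; DESeq2 called 1 higher and 3 lower, and limma 0. The 5 Schwann cell genes summed to 180 and 208 CPM in Prg4/Cytl1 wells, against 227 and 378 CPM in cartilage, 75.4 and 38.0 CPM in tendon, 71.6 and 59.4 CPM in fibroblast and 59.5 and 73.0 CPM in remaining wells. Nearly all of it was S100b, a calcium-binding protein also made by chondrocytes (180 and 198 CPM), and Mbp was at 0. The 8 osteoclast genes summed to 310 and 117 CPM in Prg4/Cytl1 wells, against 92.2 and 93.5 CPM in cartilage, 593 and 490 CPM in tendon, 223 and 170 CPM in fibroblast and 344 and 418 CPM in remaining wells. Of this Ctsk, whose promoter drives Cre in these mice, gave 296 and 86.4 CPM, and Oscar, Ocstamp, Dcstamp and Calcr were at 0. Whether cells of these other types added to the results above was not tested.

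The wells varied widely among themselves in cartilage genes. Col2a1 ran from 10.1 to 14632 CPM per well, with a median of 1454 CPM in animal 1 and 2829 CPM in animal 2. Hapln1 was counted in 9 of 18 wells of animal 1 and 27 of 33 of animal 2, and Sox9 in 11 and 18. Ordered by Col2a1, the genes most alike across the 51 wells were Col11a1 (Spearman rho 0.71), 3110079O15Rik (0.63) and Hapln1 (0.61), all from the chondrocyte list. The genes that ran most opposite to it were Lgals1 (rho -0.54), the metal-binding metallothionein Mt1 (-0.51), Tmsb4x (-0.47) and the growth factor binding protein Igfbp4 (-0.47). The signs were the same in each animal for all 7. Such values are a description over wells that share 2 plates, among the highest and lowest of all genes counted in at least 15 of the wells.

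**Figure D5:**
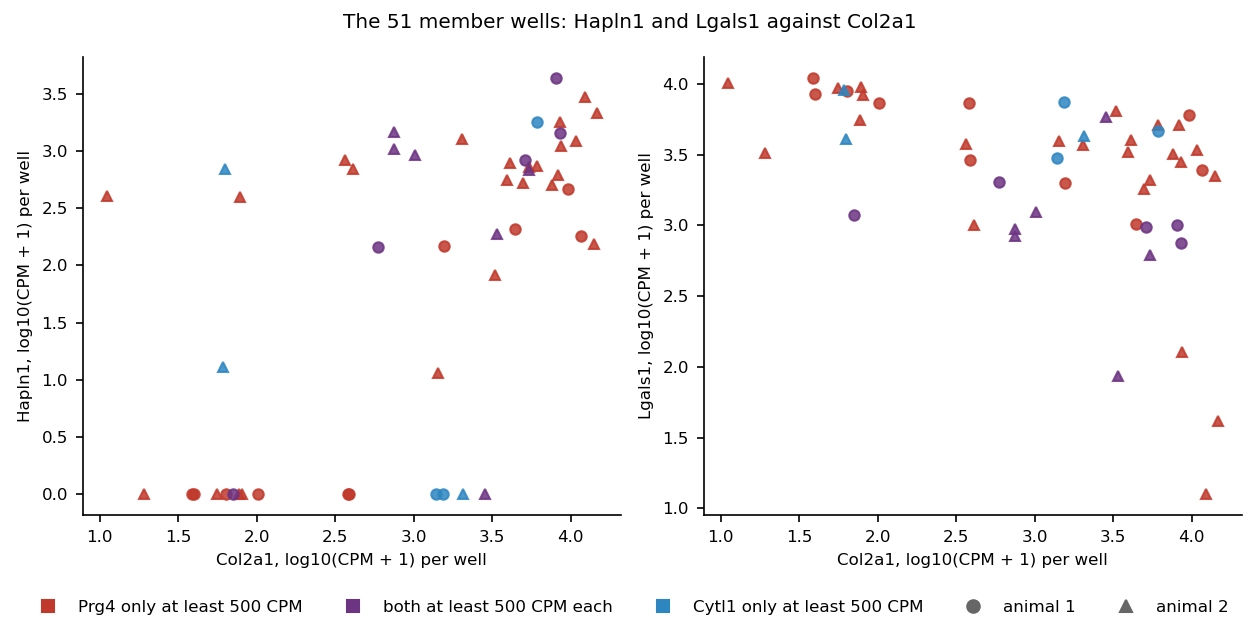
Hapln1 (left) and Lgals1 (right) against Col2a1 in the 51 Prg4/Cytl1 wells, each as log10(CPM + 1); colour marks which of Prg4 and Cytl1 reached 500 CPM and shape the animal. Hapln1 runs with Col2a1 (rho 0.61) and Lgals1 against it (rho -0.54), with all 3 kinds of wells spread along the Col2a1 axis.

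Prg4 had other companions. The gene most like it across the wells was Fn1, fibronectin (rho 0.50), with Itih5 the third highest (0.44) and the EGF receptor inhibitor Errfi1 the fourth (0.43). Prg4 ran opposite to the ribosomal gene Rps12 (-0.55), Mia (-0.50) and Col1a1 (-0.49). Most of the genes ranked lowest with Prg4 were ribosomal protein genes or copies of them, such as Rpl37rt (-0.50) and Rps13 (-0.49). In animals 1 and 2 the rho was 0.60 and 0.39 for Fn1, 0.63 and 0.33 for Itih5, and 0.72 and 0.23 for Errfi1. The rho of Prg4 with Col2a1 was 0.12 (-0.07 and 0.16 in the 2 animals) and with Creb5 0.36. Prg4 and Cytl1 selected the wells, so these ranks are description. For Cytl1 the second highest was Mgp (rho 0.43), after the pseudogene Rpl21-ps4 (0.51). The ribosomal genes Rplp1 (0.42) and Rps14 (0.42) were also among the highest for Cytl1. Every well in which Cytl1 alone reached 500 CPM had at least 11449 CPM of Mgp, whereas wells with Prg4 alone ranged from 12.5 to 42355 CPM.

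The 6 wells with Cytl1 alone were described and not tested, because each animal had 3. Their Fn1 averaged 149 CPM per well, against 1317 CPM in the 34 wells with Prg4 alone, and their median Mgp was 24158 CPM against 6469 CPM. Lgals1 had a median of 4459 CPM in wells with Cytl1 alone, 3720 CPM with Prg4 alone and 977 CPM in the 11 wells with both. Tmsb4x followed with 202, 404 and 34.1 CPM. Wells with both genes were thus lowest in these 2 genes by median, although their ranges, 85.3 to 5870 CPM for Lgals1 and 0 to 1200 CPM for Tmsb4x, overlapped those of the other kinds.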

How the data were processed

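The table the authors deposited holds whole-number counts per gene and well. The submitters' processing notes name build mm10 and CASAVA, without their roles. The aligner, counter, annotation and any collapsing of duplicates: not given in the sources used here. Per the labels' protocols, cells were sorted into plates, cDNA was made by template switching and amplified by PCR, and libraries were prepared with Nextera XT. A nonzero count had a median of 18, and 23.1% of nonzero values were 1, so a count was not read as a molecule. Of 658 wells 653 were kept (318 and 335), and the 5 left out had 26.7% to 94.2% mitochondrial counts. Raw counts were summed per animal and group into 10 sums and tested with edgeR 4.0.16 (TMM, filterByExpr, glmQLFit and glmQLFTest, animal as a block because every animal gives every group, 4 residual degrees of freedom), with genes at an adjusted p of at most 0.05 called. The 9 genes of the rule stayed in the library totals and out of the tests. Alternatives were DESeq2 1.42.0 size factors and Wald test, limma 3.58.1 on log2(mean CPM + 1), no filter, no block, 3 groups, thinning to 5000 counts and other limits. Named genes were called, moved the same way in both animals, reached 50 CPM in a compared group, had no kept well with over 25% of their counts, and were among the 15 highest or 10 lowest folds; rule genes and list genes were added, and Errfi1, Rgcc, Fn1, Mt1, Igfbp4, Rps12 and Rpl21-ps4 were chosen after their values were seen. Binomial intervals are exact 95% (Clopper-Pearson). The members and the 28 gene lists were chosen with earlier results of these data known. Positions are from GENCODE on the same build.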

Additional observations from a re-analysis of the deposited data

How the results depend on the processing

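No named gene's fold turned its direction in the settings run. The count of genes against all 4 other groups, 1 in the fit reported, was 3 without the filter on low counts, 6 with no replicate block, 0 with 3 groups in the fit, 88 with wells thinned to 5000 counts, 0 with a membership limit of 250 CPM, 2 without wells over 2 times the median total, 927 with DESeq2 and 22 with limma on mean CPM per well. Against cartilage wells the count, 4 as reported, was 13, 14, 0, 107, 11, 9, 645 and 30 in the same settings. Against the groups below the cartilage limit, 40 as reported, it was 0 with 3 groups in the fit, 159 with thinned wells, 1106 with DESeq2 and 112 with limma, and 35 to 53 elsewhere, including 44 with no replicate block. The cause of these shifts was not tested; the fit with 3 groups has fewer sums. Leaving out wells by total was chosen after seeing the data. Of the named genes, 18 of 25 against the groups below the cartilage limit, 2 of 4 against cartilage wells (Itih5 and Ifitm3) and 0 of 1 against all groups kept the call in every setting except 3 groups in the fit. The share of Prg4/Cytl1 wells was 6.53% to 8.37% across filters, limits and thinning, and 5.66% to 9.85% with 1 animal left out. Each named gene's fold kept its sign with either animal left out, where no test can be made. The test of Prg4-led against Cytl1-led wells was not run, as just 4 and 5 wells per animal were Cytl1-led and 10 were required. Depth per animal was set by 18 and 33 wells, so genes counted in a few of them, such as Egfl6, rest on those wells.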

Other observations

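Several gene groups outside cartilage and joint biology were also followed in the Prg4/Cytl1 wells. Glycolysis and low-oxygen response genes had a median log2 fold of 0.62 against the tendon, fibroblast and remaining wells, and none of 28 was called by edgeR, while 11 were higher and 1 lower at unadjusted p under 0.05 and DESeq2 called 7 and 1 and limma 0. Over all 14369 genes, 621 were higher at that unadjusted limit. Against cartilage wells the median of the list was -0.14, none was called, and 0 were higher and 2 lower at that limit. The 28 genes together summed to 4808 and 5279 CPM in Prg4/Cytl1 wells and 5127 and 5734 CPM in cartilage wells. Ldha, lactate dehydrogenase A, averaged 832 ± 90.6 CPM in Prg4/Cytl1 wells, against 523 CPM in tendon, 424 CPM in fibroblast and 628 CPM in remaining wells (edgeR adjusted p = 0.111). Of 21 immediate-early and heat shock genes 2 were called higher in the same comparison, Ier2 and Hspa1a, beside 0.146% of all genes. Ier2 averaged 1788 ± 40.1 CPM in Prg4/Cytl1 wells against 739, 544 and 780 CPM in tendon, fibroblast and remaining wells, and 2003 CPM in cartilage wells. The 21 genes together summed to 10189 and 11243 CPM in Prg4/Cytl1 wells and 11420 and 15712 CPM in cartilage wells.

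Secreted signals were uneven. Wif1, a secreted Wnt inhibitor, was 1532 and 2211 CPM in Prg4/Cytl1 wells, against 1132 and 1430 CPM in cartilage wells and 7.41 and 121 CPM in fibroblast wells, and Sfrp5, another Wnt antagonist, had no count in the Prg4/Cytl1 wells. Neither passed the test, and none of 11 Wnt antagonists was called by edgeR. At unadjusted p under 0.05 there were 2 higher and 3 lower, with the same numbers called by DESeq2 and 0 by limma. The 13 Wnt antagonists together summed to 1634 and 2529 CPM in Prg4/Cytl1 wells, which overlapped the 1586 and 1801 CPM of tendon wells. Their sum was 960 and 1404 CPM in remaining wells. Igf1 averaged 77.3 ± 42.5 CPM in Prg4/Cytl1 wells, against 624, 708 and 287 CPM in tendon, fibroblast and remaining wells (edgeR adjusted p = 0.0659). Osr2, a zinc finger factor of joint development, averaged 49.3 ± 0.04 CPM in Prg4/Cytl1 wells, against 14.7 CPM in cartilage, 0.66 CPM in tendon, 93.2 CPM in fibroblast and 21.5 CPM in remaining wells, and did not pass either (edgeR adjusted p = 0.130). Rgcc, a cell cycle regulator chosen after its values were seen, was 1017 and 817 CPM in Prg4/Cytl1 wells, against 402 CPM or less in every other sum (edgeR adjusted p = 0.124 against the groups below the cartilage limit).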
